A study of Mus musculus with 4 samples.

Results

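Semaphorins, plexins and neuropilins are the ligands and receptors of one axon guidance system, and 31 of their genes, 20 semaphorins, 9 plexins and 2 neuropilins, were taken by gene symbol from the 18193 genes that had a probe set of their own on the array. Their RNA was compared between MP amacrine cells and MP bipolar cells of the mouse retina at postnatal day 6, with 2 samples of each and 1 Affymetrix array per sample. All 4 samples came from offspring of mixed C57Bl6 x CD1 background, from fathers with the MP transgene and mothers without it, and every cell collected carried the CFP that marks MP expression. MP amacrine cells were sorted by flow cytometry as CFP+VC1.1+. MP bipolar cells were sorted as CFP+VC1.1– after a magnetic column had taken out cells that bind the VC1.1 antibody, so the groups differ in that step as well as in cell type. A sample pooled about 1000 cells, and the replicates of a group were from different litters. Which promoter drives the transgene is not stated in the sources used here.

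Semaphorins are secreted (class 3), membrane-spanning (classes 4 to 6) or held by a lipid anchor (class 7). Plexins are their receptors and inactivate Ras-family GTPases in the growth cone, and most class 3 ligands first bind a neuropilin that pairs with a class A plexin. In the developing mouse retina Sema5a and Sema5b, acting through Plxna1 and Plxna3, are known to keep the processes of inner retinal neurons within the inner plexiform layer, and Sema6a with Plxna2 and Plxna4 is known for sorting processes into its sublayers.

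The neuropilins Nrp1 and Nrp2, the plexin Plxna1 and the ligands Sema3d and Sema5a were higher in MP amacrine cells. The ligands Sema5b and Sema7a were higher in MP bipolar cells. Of the 31 genes 29 were tested, and these 7 passed, 5 in the amacrine and 2 in the bipolar direction. That is 24.1% of those tested, beside 13.5% of all 11583 genes tested. By direction it is 17.2% beside 6.54% in the amacrine and 6.9% beside 6.92% in the bipolar direction. In size the middle of the family lay near the background, with a median absolute fold change of 0.25 against 0.26 for all tested genes. In sign it lay to the amacrine side, with a median of 0.23 against -0.03. The members, and the lists of other genes used further on, were chosen with earlier results of these data known. Shares and medians over them are therefore not a test of the family.

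Values are probe set intensities in arbitrary units on a linear scale, and the brightest probe set stood for a gene. Fold changes are differences of group means of log2(intensity + 16), amacrine minus bipolar, which understates the change of dim genes. A gene entered the test if its probe set exceeded the median of the array on 2 or more arrays, and it was called if limma's Benjamini-Hochberg adjusted p over all tested genes was under 0.05. The precision of each value is limited by the number of arrays. A p-value here rests on the spread between samples of different litters, which limma estimates partly from other tested genes of like intensity. Of the 29 tested, 23 lay above the median on all 4 arrays. Sema3d and Sema5a did so on the amacrine arrays alone, so they entered the test through the group in which they were high. Without the filter all 31 entered and 6 were called, 4 in the amacrine and 2 in the bipolar direction, beside 4.31% of all genes, and Nrp2 was the one lost (adjusted p = 0.0791).

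The sort was checked on markers chosen for each cell type. Neurod6, the transcription factor in the title of the series, had intensities of 1679.6 and 1493 in the amacrine samples and 9.55 and 5.99 in the bipolar samples. Of 9 amacrine markers tested 8 were called higher in MP amacrine cells, but 5 of these (Tfap2b, Tfap2c, Barhl2, Calb2 and Neurod6) entered the test only through the group in which they were high. Of 6 bipolar markers tested 4 were called higher in MP bipolar cells. Another of the 6, Isl1, had 1055 and 925 in the amacrine and 574 and 684 in the bipolar samples, the other way, and was not called (0.64, adjusted p = 0.0835, limma). Amacrine replicate 2 stood apart, with a log2 difference of 3.21 between its 3-prime and 5-prime Gapdh signals, where the other arrays had 1.78 to 2.0.

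**Figure D1:**
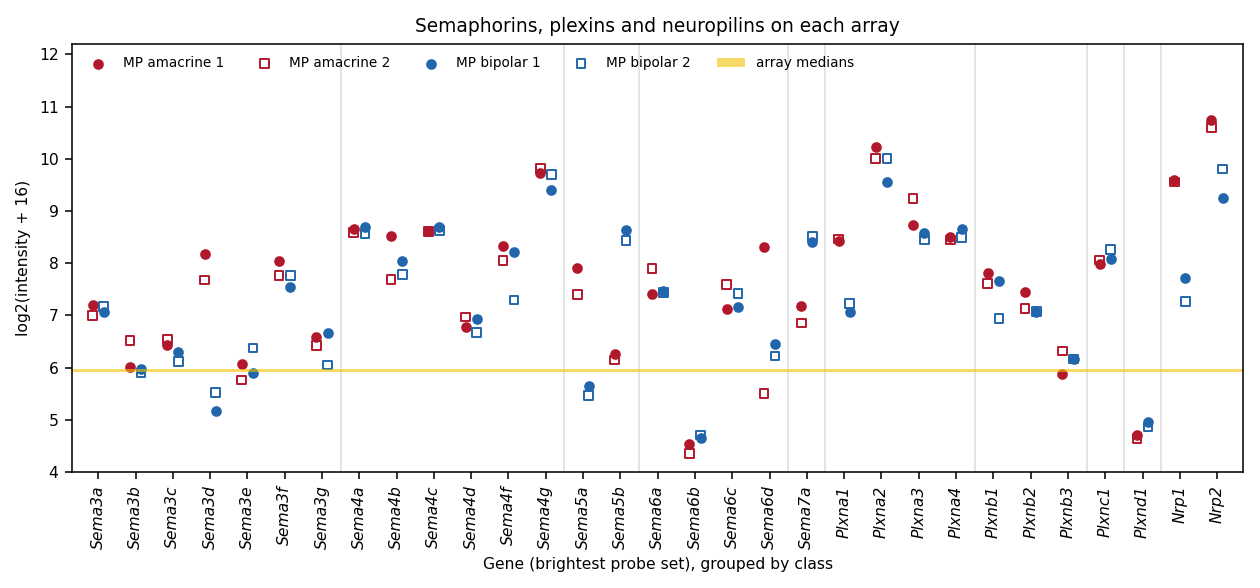
Level of each of the 31 genes on each of the 4 arrays, as log2(intensity + 16) of the brightest probe set, with genes grouped by class along the horizontal axis. Red symbols are amacrine and blue symbols bipolar samples, filled circles replicate 1 and open squares replicate 2, and the yellow line marks the array medians. The amacrine symbols of Sema3d, Sema5a, Plxna1, Nrp1 and Nrp2 lie above the bipolar ones, those of Sema5b and Sema7a below, and Sema6d has its amacrine symbols far apart.

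Upstream sequence is shown for the class 5 pair Sema5a and Sema5b, because they were called in opposite directions, and for Nrp2 and Sema3d, called in the same direction as Sema5a. The stretches come from RefSeq (GRCm38.p6), plus strand, 5′ to 3′, and stop before the first annotated base of the gene. They are chr15:32244563-32244812 (Sema5a), chr16:35541112-35541153 (Sema5b), chr1:62703067-62703316 (Nrp2) and chr5:12382916-12383160 (Sema3d). Capitals mark matches, on either strand, to GGGCGG or CCCNNGGG.
Sema5a: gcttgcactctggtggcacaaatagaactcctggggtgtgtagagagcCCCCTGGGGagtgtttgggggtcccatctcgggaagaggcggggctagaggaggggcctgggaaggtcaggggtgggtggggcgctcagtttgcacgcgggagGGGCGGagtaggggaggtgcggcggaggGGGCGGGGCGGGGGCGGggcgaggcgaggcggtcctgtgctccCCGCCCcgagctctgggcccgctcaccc
Sema5b: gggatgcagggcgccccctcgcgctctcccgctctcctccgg
Nrp2: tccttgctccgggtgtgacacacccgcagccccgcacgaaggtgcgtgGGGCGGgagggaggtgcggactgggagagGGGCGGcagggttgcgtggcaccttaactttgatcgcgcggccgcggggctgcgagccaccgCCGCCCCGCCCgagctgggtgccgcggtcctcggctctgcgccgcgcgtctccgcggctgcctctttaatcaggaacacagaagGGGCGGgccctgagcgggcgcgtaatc
Sema3d: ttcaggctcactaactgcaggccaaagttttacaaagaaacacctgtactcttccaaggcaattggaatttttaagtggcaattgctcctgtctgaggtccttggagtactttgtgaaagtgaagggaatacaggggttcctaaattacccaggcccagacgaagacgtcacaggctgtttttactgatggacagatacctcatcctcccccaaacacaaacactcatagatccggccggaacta

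Of the 7 called genes 6 had a promoter entry, all but Plxna1. In each, the 250 bases before the start were searched on both strands for 4 motifs, and a match describes letters only. For Sema5b 42 of them precede the first annotated base and are printed. The GC box GGGCGG occurred 5 times each upstream of Sema5a and Nrp2, some of the matches overlapping. It occurred 2 times in the window of Sema7a and 1 time in that of Nrp1. The matches of Sema7a and Nrp1 did not lie wholly before the first annotated base of the gene. It was not in the windows of Sema3d and Sema5b, and 32.7% of all 32851 windows held it. The core of the Ebf motif, CCCNNGGG, matched at 2 overlapping positions upstream of Sema5a and in 11.8% of all windows. Neither CAGATG, an E-box form bound by Neurod-type factors and found in 14.4% of all windows, nor TAATCC, the Otx and Crx core found in 6.25%, was in any of the 6. The printed stretches of Sema5a and Nrp2 were 72.0% and 72.4% G and C, and that of Sema3d 46.1%.

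The class 5 ligands, membrane proteins with thrombospondin repeats, were called in opposite directions. Sema5a had intensities of 223 and 153 in the amacrine samples and 34.2 and 28.3 in the bipolar samples. Both bipolar samples were low, under the array medians of 44.5 to 47.1, and the groups did not overlap. The means were 188 ± 48.8 in amacrine and 31.3 ± 4.19 in bipolar cells (SD, n = 2), with a fold change of 2.09 (SE 0.24, adjusted p = 8.62e-04, limma).

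Sema5b had the reverse pattern, with 60.7 and 54.8 in the amacrine samples and 380.4 and 329 in the bipolar samples. Its replicates were close and its groups did not overlap. The means were 57.8 ± 4.2 in amacrine and 355 ± 36.3 in bipolar cells (SD, n = 2), with a fold change of -2.33 (SE 0.21, adjusted p = 2.80e-04, limma). A further probe set of Sema5b, below the filter, gave -0.13.

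Sema5a has 3 further probe sets. The one above the filter had 83.7 and 364 in the amacrine samples and 43.5 and 19.1 in the bipolar samples. Its fold change was also 2.09, but its amacrine replicates lay far apart and it was not called when tested singly (adjusted p = 0.0834, limma). Without bipolar replicate 2 that probe set became the brightest, and Sema5a was then not called (1.71, adjusted p = 0.196). With the original probe set kept, the value without that replicate was 2.0 (adjusted p = 0.00727). The other two, below the filter, gave 0.01 and 0.13.

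Among the 7 class 3 ligands, which are secreted and act at a distance from the cell that makes them, Sema3d was called. It had intensities of 273 and 188 in the amacrine samples and 19.97 and 30.1 in the bipolar samples. The bipolar samples were again under the array medians and the groups did not overlap. The means were 230.4 ± 59.7 in amacrine and 25.02 ± 7.14 in bipolar cells (SD, n = 2), with a fold change of 2.58 (SE 0.25, adjusted p = 3.76e-04, limma). Its further probe set lay between 2.44 and 5.85 on the 4 arrays, below the filter, and gave 0.01.

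Sema3d is the direct neighbour of Sema3a on chromosome 5, with 0 annotated protein-coding genes between them, and Sema3e and Sema3c follow after 3 and 15 more. These neighbours were not called. Sema3a, the collapsin that repels many growth cones, had 131 and 112 in the amacrine and 118 and 128 in the bipolar samples, which overlapped. Its fold change was -0.02, with a 95% interval from -0.50 to 0.47. The interval of Sema3e, a ligand that can bind Plxnd1 without a neuropilin, ran from -0.79 to 0.34, and that of Sema3c from -0.18 to 0.76. Sema3b (0.33), Sema3f (0.25) and Sema3g (0.15), ligands of Nrp2, were not called either (adjusted p from 0.459 to 0.805, limma). For all 6 the interval stayed within 1 either way, a 2-fold difference on this scale. These intervals rest on the brightest probe set, which for Sema3f has the suffix _x_at. The further probe sets of Sema3f lay below the filter. The brighter of them had 17.5 and 9.09 in the amacrine and 20.5 and 25.2 in the bipolar samples, the other way (-0.42).

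Both neuropilins, which bind class 3 semaphorins and also VEGF, were higher in MP amacrine cells. Nrp1 had intensities of 755 and 736 in the amacrine samples and 194 and 138 in the bipolar samples. The amacrine replicates were close together and well above the bipolar ones. The means were 746 ± 13.2 in amacrine and 166 ± 39.6 in bipolar cells (SD, n = 2), with a fold change of 2.08 (SE 0.24, adjusted p = 9.36e-04, limma).

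Nrp2 had intensities of 1694 and 1528 in the amacrine samples and 591 and 876 in the bipolar samples. The groups did not overlap, and the bipolar replicates were farther apart than the amacrine ones. The means were 1611 ± 118 in amacrine and 734 ± 202 in bipolar cells (SD, n = 2), with a fold change of 1.14 (SE 0.22, adjusted p = 0.0122, limma). Without bipolar replicate 1, the lower of the pair, the fold change was 0.86 and Nrp2 was not called (adjusted p = 0.0671).

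Each neuropilin had 4 probe sets, all above the filter, and on all 8 the amacrine samples lay above the bipolar ones. Over all genes on the array, by the brightest probe set, this held for 22.2%. Probe sets of the same gene are not independent. On 1 of Nrp2 the groups all but met, with 298 and 786 in the amacrine and 291 and 233 in the bipolar samples. The 3 further probe sets of Nrp1 gave 1.09, 1.48 and 1.44, of which the last pair were called singly (adjusted p = 0.0163 and 0.0101, limma), beside 10.2% of all 19168 probe sets tested. Those of Nrp2 gave 0.86, 1.5 and 1.11, and the one at 1.5 was called singly (adjusted p = 0.0293). Of the 7 called genes 3, Sema5a, Nrp1 and Nrp2, had further probe sets above the filter, and all 7 of these had the sign of the brightest. Across the whole family 12 of 16 further probe sets above the filter had that sign.

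**Figure D2:**
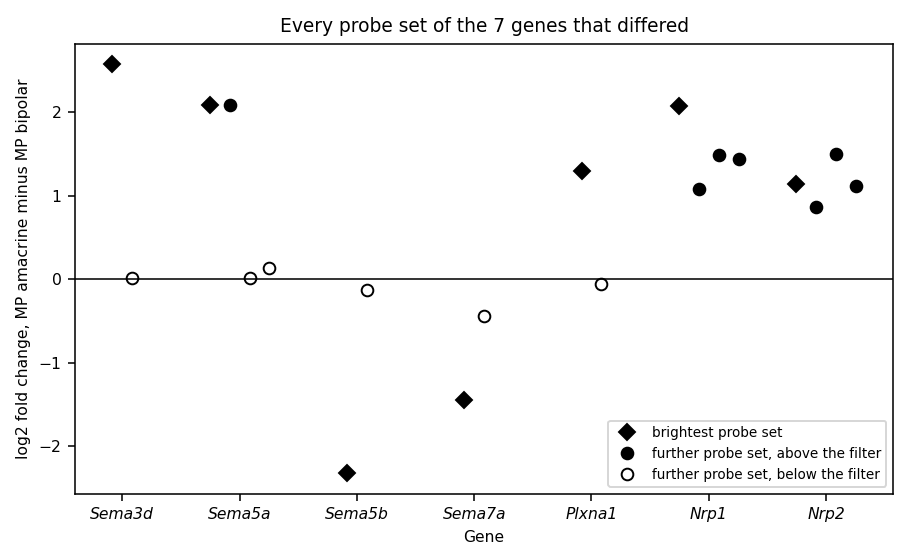
Fold change (log2 scale, MP amacrine minus MP bipolar) of every probe set of the 7 called genes, with the genes along the horizontal axis. Diamonds are the brightest probe set of a gene, filled circles further probe sets above the filter and open circles those below it. The 8 neuropilin symbols lie between 0.86 and 2.08, and the open circles of Sema3d, Sema5a, Sema5b and Plxna1 lie near 0.

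Plxna1, a class A plexin that serves as receptor for class 5 ligands and as signalling partner of neuropilins, was the plexin that was called. It had intensities of 325 and 337 in the amacrine samples and 117 and 133 in the bipolar samples. The replicates were close and the groups did not overlap. The means were 331 ± 8.17 in amacrine and 125 ± 11.3 in bipolar cells (SD, n = 2), with a fold change of 1.3 (SE 0.21, adjusted p = 0.00535, limma). Without bipolar replicate 1 it was not called (1.22, adjusted p = 0.0592), nor as the mean with its other probe set (0.62, adjusted p = 0.0526), which lay between 1.0 and 2.38 on the 4 arrays. Without bipolar replicate 1, the number called in the amacrine direction was 3.

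Plxna2, a receptor of Sema6a, gave different calls by probe set. The brightest had 1182 and 1012 in the amacrine samples and 739 and 1009 in the bipolar samples, which all but met, and was not called (0.33, adjusted p = 0.411, limma). Another had 185 and 289 against 47.8 and 105, a fold change of 1.49 that was called singly (adjusted p = 0.0481). One more had 206 and 378 against 146 and 159 and was not called (0.81, adjusted p = 0.185). On these 3 the amacrine samples were the higher ones, and the last, below the filter, gave 0.16.

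Plxna3, which shares class 5 ligands with Plxna1, had 407 and 589 in the amacrine samples and 367 and 336 in the bipolar samples. The amacrine samples were higher and did not overlap the others, but the fold change of 0.46 was not called (adjusted p = 0.315, limma), with an interval from -0.12 to 1.04. Plxna4, the other receptor of Sema6a, had 345 and 332 against 385 and 344, with overlap. Its fold change was -0.10, with an interval from -0.60 to 0.40, and its further probe set gave -0.08.

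**Figure D3:**
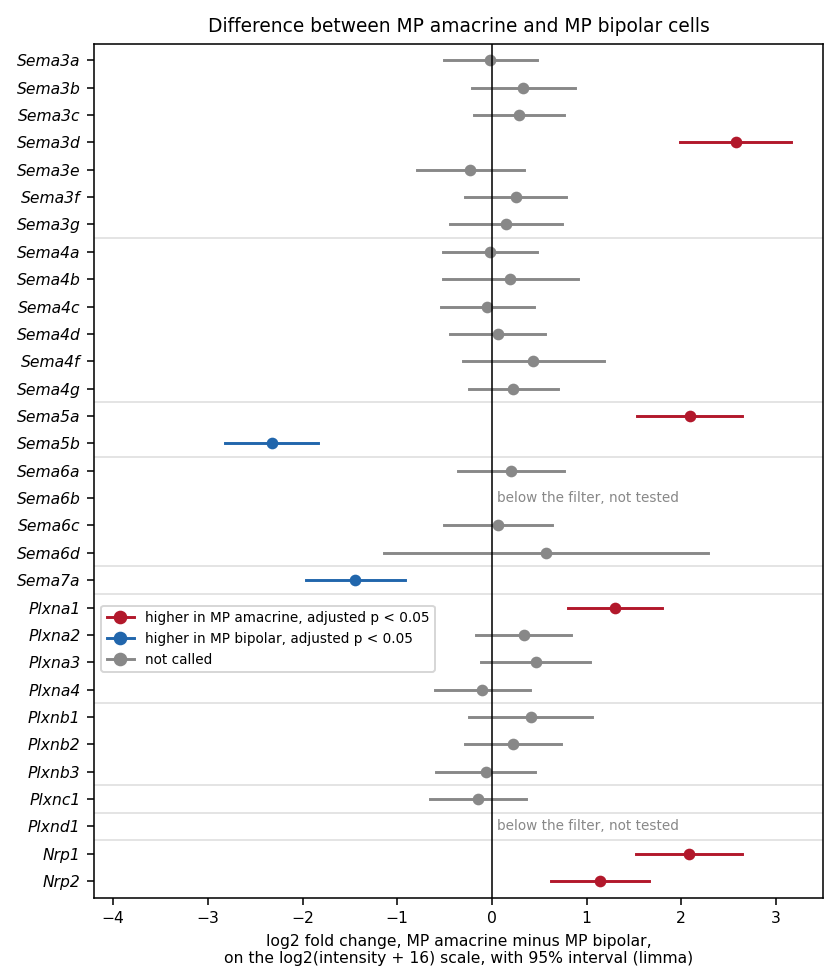
Fold change of the 29 tested genes (MP amacrine minus MP bipolar, log2(intensity + 16) scale) with limma's 95% interval as a bar. Red marks the 5 genes called higher in MP amacrine cells, blue the 2 called higher in MP bipolar cells and grey those not called. Of the 22 grey bars 18 stay between -1 and 1, and those of Sema4f, Sema6d, Plxna3 and Plxnb1 reach past 1.

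Sema7a, the lipid-anchored semaphorin that signals through integrins and Plxnc1, was higher in MP bipolar cells. It had intensities of 128 and 99.4 in the amacrine samples and 323 and 347 in the bipolar samples. The groups lay well apart. The means were 114 ± 20.3 in amacrine and 335 ± 16.97 in bipolar cells (SD, n = 2), with a fold change of -1.44 (SE 0.23, adjusted p = 0.00408, limma). Its further probe set, below the filter, had 28.9 and 26.9 against 42.3 and 45.3 and gave -0.45, in the same direction. Plxnc1 had 237 and 251 in the amacrine and 255 and 289.8 in the bipolar samples. Its fold change of -0.15 was not called (adjusted p = 0.758), and the interval ran from -0.65 to 0.36.

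The class 4 ligands, membrane proteins known in immune as well as neural cells, had 0 of 6 genes called, with fold changes between -0.05 for Sema4c and 0.44 for Sema4f. Sema4g had 833 and 879.5 in the amacrine and 657 and 811 in the bipolar samples (0.23, adjusted p = 0.58, limma). Sema4a (-0.02), Sema4b (0.19) and Sema4d (0.06) had overlapping groups. Sema4a and Sema4c turned to 0.05 and 0.02 under quantile scaling, so their direction is not given. The class B plexins that serve as their receptors, Plxnb1 (0.41), Plxnb2 (0.23) and Plxnb3 (-0.06), were not called (adjusted p from 0.441 to 0.909). The interval of Plxnb1 ran from -0.24 to 1.06.

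Of the class 6 ligands, which bind class A plexins on neighbouring cells, 3 were tested and 0 called. Sema6a had 154 and 222 in the amacrine samples and 159.7 and 157 in the bipolar samples, which overlapped (0.21, adjusted p = 0.681, limma). A further Sema6a probe set above the filter had the opposite sign, with 33.1 and 39.5 against 72.2 and 56.00 (-0.61, adjusted p = 0.153 singly). Sema6c lay between 122 and 177 on the 4 arrays, with a fold change of 0.07. Sema6b and Plxnd1, the receptor of Sema3e, were too dim to be tested, between 4.38 and 10.2 for Sema6b and between 8.93 and 15.2 for Plxnd1.

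Sema6d rested on single samples. It had 301 and 29.4 in the amacrine samples and 71.6 and 58.5 in the bipolar samples, so the bipolar pair lay between the amacrine values. The fold change was 0.57, with an interval from -1.14 to 2.28. Without amacrine replicate 2 it was 1.97 and called (adjusted p = 0.0037, limma), and without amacrine replicate 1 the same probe set gave -0.83 (adjusted p = 0.0712). Its further probe set above the filter had 71.6 and 52.3 against 67.9 and 59.6 and gave -0.04.

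Over the family the samples of the groups did not overlap for 18 of 31 genes. The amacrine samples were above for 12 (38.7%) and the bipolar samples for 6 (19.4%), beside 22.2% and 25.5% of all genes on the array. All 7 called genes were among the 18. Of the 22 tested and not called, 7 had the amacrine samples above, 2 the bipolar samples above and 13 overlapped.

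Ligands and receptors were set side by side in 26 known pairs, chosen from general knowledge, many of which share a gene. The list is not complete, and the counts depend on it. It sets no class 3 ligand beside a class A plexin and holds no pair of Sema4b or Sema4f. In 3 pairs both genes were called. Sema3d and Nrp1 (2.58 and 2.08) and Sema5a and Plxna1 (2.09 and 1.3) were higher in MP amacrine cells. Sema5b and Plxna1 were called in opposite directions, the ligand in MP bipolar cells (-2.33) and the receptor in MP amacrine cells (1.3). In 4 pairs only the ligand was called, those of Sema5a with Plxna3 and Plxnb3, Sema5b with Plxna3, and Sema7a with Plxnc1. In 8 only the receptor was called, which were pairs of the other class 3 ligands with a neuropilin and of Sema6c and Sema6d with Plxna1. Neither gene was called in 11, among them every pair of a class 4 ligand. Of these 11, the pairs with Plxnd1 and those with Sema6b hold a gene below the filter that was not tested.

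**Figure D4:**
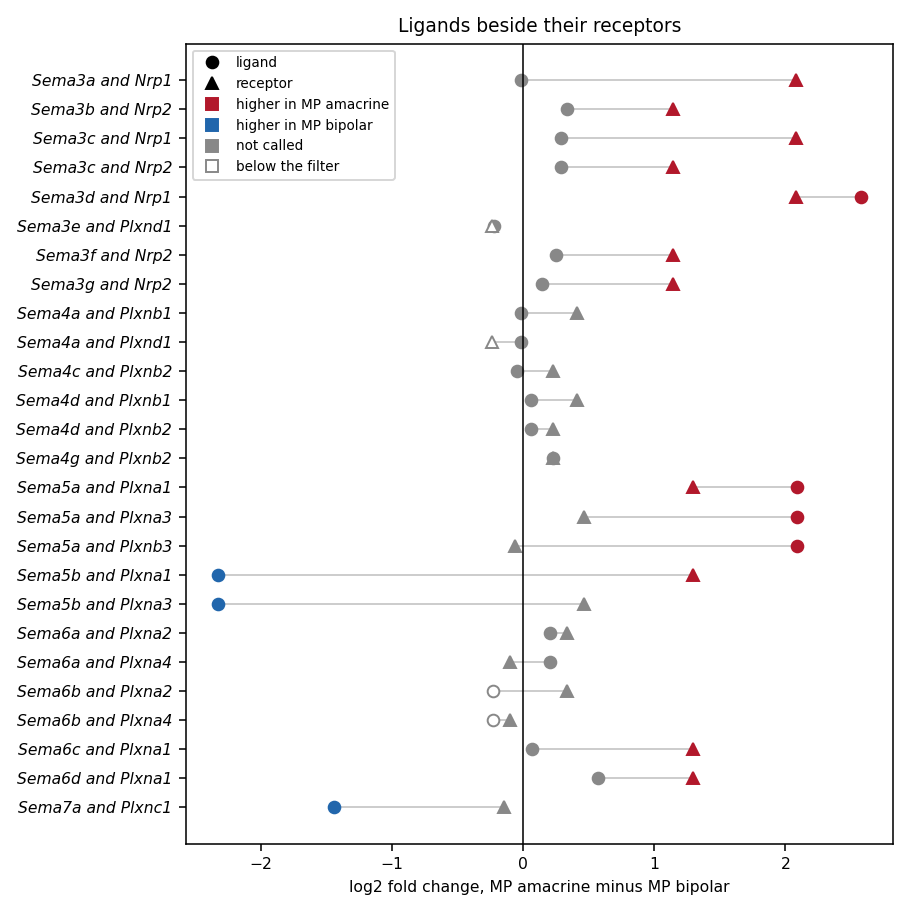
Fold change (log2 scale, MP amacrine minus MP bipolar) of the ligand (circle) and the receptor (triangle) in 26 pairs, 1 row per pair, joined by a line. Red marks genes called higher in MP amacrine cells, blue those called higher in MP bipolar cells, grey those not called, and open symbols genes below the filter. The line from Sema5b at -2.33 to Plxna1 at 1.30 crosses from one called direction to the other.

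Other genes of semaphorin signalling were taken from lists of 50 genes, of which 47 were on the array under a probe set of their own and 36 were tested. Of these 5 were called higher in MP amacrine (13.9%) and 3 higher in MP bipolar cells (8.33%), beside 6.54% and 6.92% of all tested genes, and the median fold change was 0.11. The counts of the single lists that follow rest on 3 to 13 tested genes each and are to be read against the same shares. Of 6 tested co-receptors and alternative receptors, 1 was called in each direction. L1cam, an adhesion molecule that joins Nrp1 in Sema3a receptors, had 359 and 469.9 in the amacrine and 114 and 139.7 in the bipolar samples (1.59, SE 0.24, adjusted p = 0.00353, limma). Nrcam, a relative that joins Nrp2, had 390.3 and 449.7 against 1053 and 1058 (-1.3, SE 0.20, adjusted p = 0.00398). Both had groups that did not overlap, in opposite directions.

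Of 3 tested VEGF ligands of neuropilins, Vegfc was called. It had 3352 and 2820.2 in the amacrine and 43.6 and 64.8 in the bipolar samples, a fold change of 5.48 (SE 0.25, adjusted p = 1.66e-05, limma). Vegfa (0.15) and Vegfb (0.16) were not called.

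Inside the cell, 1 of 6 tested collapsin response mediators and MICALs, 3 of 13 small GTPases and regulators and 1 of 8 kinases and cytoskeletal effectors were called. Rnd3, of a kind of protein that binds plexins, had 307 and 355 in the amacrine and 2860.2 and 2943 in the bipolar samples (-3.08, SE 0.18, adjusted p = 3.56e-05, limma). Rnd2, its relative, had 214 and 158 against 561 and 756 (-1.74, SE 0.26, adjusted p = 0.00326). Both were higher in MP bipolar cells.

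The other 3 called genes were higher in MP amacrine cells, each with a limit. Cfl1, the actin-severing protein cofilin, had a fold change of 0.69 (SE 0.12, adjusted p = 0.00587, limma) and was not called without bipolar replicate 2 (adjusted p = 0.0656). Dpysl4, a collapsin response mediator, had 1457 and 1389.8 against 648 and 652 (1.11, adjusted p = 0.00452), but another of its probe sets gave -0.05. Ranbp9, a scaffold that binds class A plexins, was near the threshold (0.87, adjusted p = 0.0487), was not called when any 1 of the 4 arrays was left out, and gave -0.08 with another probe set.

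**Figure D5:**
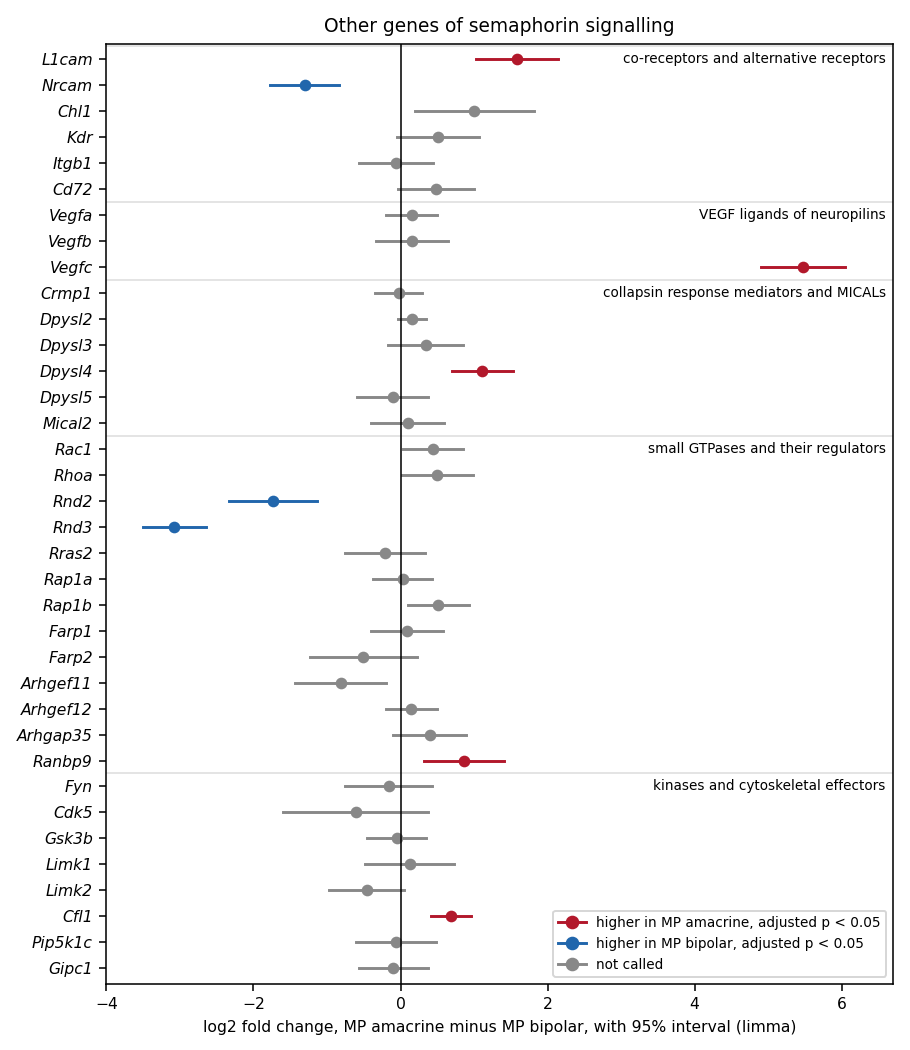
Fold change of the 36 tested genes of the other semaphorin signalling lists (MP amacrine minus MP bipolar, log2(intensity + 16) scale) with limma's 95% interval as a bar, grouped by list. Red and blue mark genes called higher in MP amacrine and MP bipolar cells, and 28 grey genes were not called. Vegfc lies at 5.48 and Rnd3 at -3.08.

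Neuropilins, plexins and semaphorins are also made by vessels, glia and microglia, so the markers of those cells are given beside the results. Endothelial and pericyte markers summed to 350.1 and 394 in the amacrine and 848 and 860.4 in the bipolar samples. Esam alone made up most of the bipolar sums, and the other 8 markers summed to 321 and 380.02 in the amacrine and 274 and 255 in the bipolar samples. Of 6 tested 1 was called in each direction, Pdgfrb in amacrine and Esam in bipolar cells, and both entered the test only through the group in which they were high. Of the defining endothelial markers, Pecam1 lay between 1.0 and 2.56 on the 4 arrays, Cdh5 between 38.4 and 54.9, Tek between 31.9 and 54.7 and Kdr between 57.1 and 116. Müller glia markers summed to 4335 and 4025 in the amacrine and 2132 and 2674 in the bipolar samples, with Slc1a3 and Vim called higher in MP amacrine cells of 6 tested. Slc1a3 entered the test only through the amacrine samples, in which it was high. Without Vim the other 7 summed to 2663 and 2507 against 2024 and 2441. Glul, at 2103 and 1870 against 1594 and 1937, made up most of these. Rlbp1, at 80.9 and 156 against 20.75 and 58.8 (1.3), and Apoe, at 190 and 120 against 94.5 and 9.81 (1.65), lay on the amacrine side. They were not called (adjusted p = 0.068 and 0.119, limma). Clu had 188 and 128 against 261 and 323, the other way, and was not called (-0.84, adjusted p = 0.076, limma). The median fold change of the 6 tested was 1.47. Microglial markers summed to 1276 and 4086 in the amacrine and 1669 and 461 in the bipolar samples, and Csf1r was called higher in MP amacrine cells of 5 tested. Ctss was the largest part of these sums except in bipolar replicate 2. It had 567 and 2665 in the amacrine and 1003 and 2.27 in the bipolar samples and was not called (3.2, adjusted p = 0.27, limma).

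Amacrine replicate 2 had the highest microglial sum and the largest Gapdh difference. Without it, and with genes and probe sets kept, each of the 7 genes kept its direction, and Nrp2 had a fold change of 1.22. The array still counted in which genes entered. With the filter redone without it, Sema3d and Sema5a fell below the filter and were not tested. Whether its microglial sum or its Gapdh difference bears on the calls was not tested. Retinal ganglion cell markers summed to 2775 and 1815 in the amacrine and 2768 and 3655 in the bipolar samples. Thy1, called higher in MP bipolar cells of 5 tested, made up most of the bipolar sums, with 806 and 1455 against 2462 and 3415. Nefh, at 73.2 and 35.0 against 77.7 and 79.1, lay the same way and was not called. Nefm, at 1631 and 136 against 47.7 and 35.0, and Pou4f1, at 157 and 88.8 against 60.3 and 36.8, lay the other way and were not called. In the same order, rod markers summed to 10861 and 6539 against 7223 and 8963, cone markers to 1434 and 1062 against 1485 and 1293, horizontal cell markers to 1372 and 841 against 346 and 249.9, and astrocyte markers to 82.9 and 106 against 104 and 107. Of these Rp1, 1 of 6 tested rod markers (0.82, adjusted p = 0.0418, limma), Gnat2, 1 of 4 cone markers (1.15, adjusted p = 0.00925), and Tfap2b, 1 of 3 horizontal cell markers, were called higher in MP amacrine cells. Tfap2b is also counted among the amacrine markers, and without it the horizontal cell markers summed to 807 and 551 against 323 and 236. The part of such cells in the results was not tested, and in sorted pools fewer cells of a type and less RNA per cell cannot be told apart.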

How the data were processed

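RNA of about 1000 sorted cells per sample was amplified in 2 rounds, labelled with biotin and hybridised to Affymetrix arrays, per the labels' protocols. The authors deposited a linear intensity for every probe set on each array. How these were summarised and scaled, and by which software, the sources used here do not state. The table carries no detection calls. Array medians lay between 44.5 and 47.1, so intensities were used as deposited.

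Of 45101 probe sets, 64 were controls, and the platform annotation gave 1 gene for 34945, several for 932 and none for 9160. Only the first were named, and 18032 of 18193 genes were found by identifier in a RefSeq table. The groups were compared with limma 3.58.1 in R 4.3.3 (lmFit, eBayes with an intensity trend, two-sided, 2 residual degrees of freedom), which was first tested on simulated data. All members were named, and of each pathway list up to 4 called genes by absolute fold change. Members and lists were chosen with earlier results of these data known. Another 11 pathway and marker genes, which have no probe set annotated to them alone, were not analysed here. Alternatives covered scaling, filter, pseudocount, probe set choice, variance trend, threshold, a replicate block and leaving out each array.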

Additional observations from a re-analysis of the deposited data

How the results depend on the processing

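The 7 called genes kept their direction under every alternative in which they were tested. Nrp1, Sema5b and Sema7a were called in 19 of 19 and Sema3d in 17 of 17, with fold changes from 1.52 to 2.3 for Nrp1, from -2.6 to -1.23 for Sema5b, from -1.6 to -0.95 for Sema7a and from 1.3 to 3.16 for Sema3d. Sema5a was called in 15 of 16, and Plxna1 and Nrp2 in 16 of 19. Leaving out an amacrine array with the filter redone put Sema3d and Sema5a below the filter, so neither is in the counts of those settings. Sema6d, which is not among the 7, is in the count without amacrine replicate 2. The number of members called in the amacrine direction then ran from 3 to 4 over the arrays left out, and 2 were called in the bipolar direction each time. With genes and probe sets kept as with all 4 arrays, an alternative chosen after seeing the data, it was 3 without bipolar replicate 1. Over all genes, 400 amacrine and 385 bipolar calls were left with no filter, 444 and 439 at a threshold of 0.01, 405 to 536 and 312 to 1164 with an array left out, and 501 and 416 without bipolar replicate 2 with genes and probe sets kept. The pathway count in the amacrine direction was 3 with the mean of probe sets, with probe sets of the suffixes _x_at, _s_at and _a_at left out, and with no intensity trend.

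Some genes, most of them not called, changed sign under some settings, and the cause was not tested. By the mean of probe sets Sema3c gave -0.0042, Sema4a 0.11 and Sema6a -0.14. Without the suffixed probe sets Sema4f gave -0.0199, Sema6a -0.61, and the called pathway genes Dpysl4 -0.046 and Ranbp9 -0.076. Quantile and loess scaling gave 0.051 and 0.048 for Sema4a and 0.0201 and 0.018 for Sema4c. With an array left out the values ran, for Sema3a from -0.12 to 0.085, Sema3g from -0.16 to 0.45, Sema4a from -0.078 to 0.041, Sema4b from -0.23 to 0.62, Sema4d from -0.067 to 0.19, Sema4f from -0.022 to 0.90, Sema6a from -0.037 to 0.45, Sema6c from -0.18 to 0.31, Sema6d from -0.22 to 1.97, Plxnb3 from -0.29 to 0.16 and Ranbp9 from -0.078 to 1.10. With genes and probe sets kept, the reversed values without amacrine replicate 1 were -0.23 for Sema4b, -0.83 for Sema6d and 0.16 for Plxnb3. Without amacrine replicate 2 they were 0.085 for Sema3a, 0.016 for Sema4a, -0.037 for Sema4d, -0.037 for Sema6a and -0.18 for Sema6c. Without bipolar replicate 1 they were 0.041 for Sema4a and -0.066 for Sema6c, and without bipolar replicate 2 0.037 for Sema3a, 0.011 for Sema3e, -0.16 for Sema3g, -0.067 for Sema4d and -0.022 for Sema4f.

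The labels do not tie equal replicate numbers to a litter, and the deviations of same-numbered samples correlated at -0.04 across 11583 genes, so the numbers were not taken to pair the samples. With the replicate number as a block, 916 genes were called in the amacrine and 1016 in the bipolar direction, 5 and 2 of the members and 6 and 4 of the pathway genes.

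Where an array was left out, the spread of the other group stood in for that of the group left with 1 sample. With 2 arrays per group and no detection calls, a difference within the spread of the replicates was not detectable.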
